A study of Mus musculus with 4 samples.

Results

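C-type lectins and siglecs are the sugar-binding receptors by which dendritic cells recognise microbes, dying cells and each other. The genes described here are those whose symbol starts with Clec, Cd209 or Siglec, together with Cd22, Cd33, Cd69, Cd72, Ly75 and Reg3g, and 1 gene was left out by the rule. This gave 43 of the 18194 genes on the array, each represented by its brightest probe set on average. Dendritic cells were grown from the marrow of C57BL/6 mice, at least 3 per experiment, for 7 days in GM-CSF and IL-4 at 10 ng/ml each, selected for CD11c to a stated purity of 95%, and given diluent (control, 2 arrays) or SAHA (2 arrays) for 12 hours. No allele other than the strain was named, and all 4 arrays share the cytokines and the selection. SAHA (vorinostat) is an inhibitor of histone deacetylases, labelled here as 500 nm, with the unit as printed there. The labels call the arrays biological replicates but do not say whether each came from its own marrow pool, and each p-value covers only the variation among these arrays.

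C-type lectin receptors fall into activating ones, which signal through the kinase Syk either directly or through the adaptors FcR gamma and DAP12, and inhibitory ones, which carry an ITIM, a short tyrosine motif that recruits phosphatases such as SHP-1. Others are mainly endocytic, are ligands of natural killer cell receptors, or are secreted. Siglecs bind sialic acid on the same or on other cells, and most of them carry ITIMs.

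All values are deposited log2 units, in which a difference of 1 is 2-fold, and levels of different probe sets are not compared. The labelled cell type was checked against its markers: 12 of 12 dendritic cell markers lay above the median of all genes, among them Itgax (the CD11c chain) and Cd74. The markers of B cells (9 measured) and of NK and T cells (11 measured) had no gene above that median, whereas 10 of 10 macrophage and monocyte markers and 6 of 10 neutrophil markers did. Across all genes the arrays correlated at 0.993 within control, 0.995 within SAHA and 0.982 to 0.989 between the groups (Pearson's r, taken across genes that share arrays). Because these are bulk samples, fewer cells of a type and less RNA per cell cannot be told apart.

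With SAHA, the Mincle gene Clec4e and the Clr-g gene Clec2i rose and the siglec gene Cd22 fell, and no other member passed the test. The 3 changes were 1.91-fold and 2.62-fold upward and 4.26-fold downward. The count is 3 of 43 members (6.98%), against 2.23% of all genes (limma, Benjamini-Hochberg adjusted p under 0.05 over all genes). Members and gene lists were chosen with earlier results of these data known, so such shares are a description only. By direction, 2 members rose against 1.52% of all genes and 1 fell against 0.709%. At an unadjusted p under 0.05, 9 members (20.9%) stood against 18.1% of all genes. The groups did not overlap for 22 members (51.2%), against 50.7% of all genes, a share near the background. Both SAHA arrays lay above both control arrays in 5 of the 43 members (11.6%), against 21.1% of all genes, and below them in 17 of the 43 (39.5%), against 29.6%. A change of at least 2-fold was seen in 3 members, Cd22, Clec2i and Cd69, against 2.56% of all genes. The median change of the members was -0.10 and that of all genes -0.05. Leaving out either SAHA array left that group with 1 array, so the 2 control arrays alone gave the spread. The changes then kept their size, at 0.96 and 0.90 for Clec4e, 1.42 and 1.36 for Clec2i and -2.17 and -2.01 for Cd22 without SAHA replicate 1 and 2 in turn. Each of the 3 calls was lost in those fits (limma), where far fewer of all genes passed as well. The calls were also lost with values floored at the 20th percentile, where 0 members and 10 of all genes (0.055%) passed. With that floor 10 members had an unadjusted p under 0.05 (limma).

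**Figure D1:**
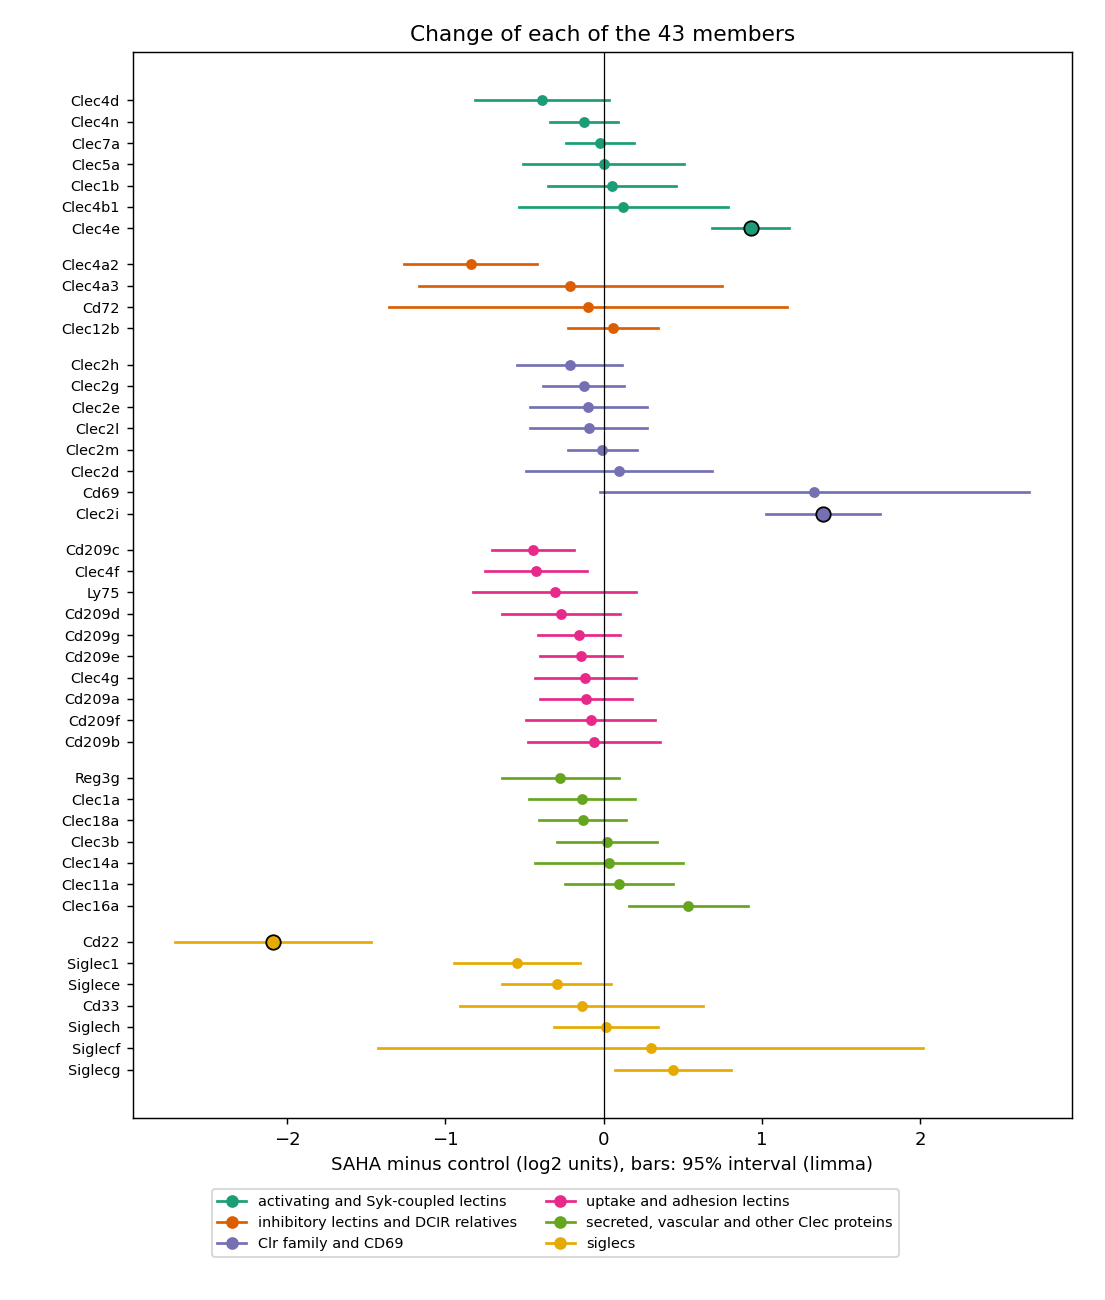
Change of each of the 43 members, SAHA minus control, in log2 units on the horizontal axis, grouped by role; points are limma estimates and bars 95% intervals. The 3 large outlined points, Clec4e at 0.93, Clec2i at 1.39 and Cd22 at -2.09, passed the test, and most other intervals include 0.

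The activating receptors held 7 members, all above the median of all genes. Clec4e encodes Mincle, which binds mycobacterial cord factor and a protein of dead cells and signals through FcR gamma. It read 12.76 and 12.68 in control and 13.62 and 13.68 in SAHA-treated cells. Both SAHA arrays lay above both control arrays, and the gap between the groups was many times that within either. The change was 0.93 ± 0.10 (SE, adjusted p = 0.0148, limma). Its second probe set read 9.67 and 9.61 in control and 11.27 and 11.18 with SAHA, a change of 1.59 (adjusted p = 0.0156 in a fit over all probe sets).

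Clec4e lies in a run of 6 members on chromosome 6, in the order Clec4a3, Clec4b1, Clec4a2, Clec4n, Clec4d and Clec4e, with at most 3 other protein-coding genes between neighbours (RefSeq gene order). Clec4d, which encodes the Mincle partner MCL, read 12.75 and 12.83 in control and 12.15 and 12.65 with SAHA. Its change was -0.39 (95% interval -0.81 to 0.03, adjusted p = 0.313), while the interval of Clec4e was 0.69 to 1.17. The estimates of these neighbouring partner genes had opposite signs, and the difference between the genes was not tested. Clec4n, which encodes Dectin-2, a receptor for fungal mannans, read 14.33 and 14.25 in control and 14.18 and 14.15 with SAHA (change -0.12, 95% interval -0.34 to 0.09). Clec4d and the Clec4n probe set used carry the suffix of probe sets that may match more than 1 transcript, and the other Clec4n probe set gave -0.19.

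The promoter windows of the neighbours Clec4e and Clec4d are shown because their genes lie side by side and only the first passed the test. They run from 250 bases before to 50 bases after the annotated start, from RefSeq on GRCm38.p6, 5′ to 3′. Capitals mark matches on either strand to GAGGAA, the core bound by the myeloid factor PU.1, to the GC box, spelt GGGCGG, to the TATA box, spelt TATAAA, or to the AP-1 site, spelt TGANTCA, and no match overlapped another.
Clec4e, chr6:123289822-123290121, minus strand: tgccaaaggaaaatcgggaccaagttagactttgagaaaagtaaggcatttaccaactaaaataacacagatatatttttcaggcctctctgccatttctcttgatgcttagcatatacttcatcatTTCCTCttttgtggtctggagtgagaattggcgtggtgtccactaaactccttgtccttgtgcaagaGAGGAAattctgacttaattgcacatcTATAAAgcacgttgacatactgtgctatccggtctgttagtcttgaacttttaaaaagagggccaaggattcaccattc
Clec4d, chr6:123261857-123262156, plus strand: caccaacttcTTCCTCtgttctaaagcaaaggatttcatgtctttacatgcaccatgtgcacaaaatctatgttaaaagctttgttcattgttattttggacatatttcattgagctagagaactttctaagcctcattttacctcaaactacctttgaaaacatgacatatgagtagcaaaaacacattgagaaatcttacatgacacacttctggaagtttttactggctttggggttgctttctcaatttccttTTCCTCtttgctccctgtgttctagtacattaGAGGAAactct
Clec4e had GAGGAA at bases 128 to 133 and 195 to 200 of the window, counted from its 5′ end, and TATAAA at bases 222 to 227. Clec4d had 3 matches to GAGGAA, at bases 11 to 16, 258 to 263 and 290 to 295, and none to the other motifs. Of the 32851 windows of all genes, where a gene can have more than 1, 28.3% held the PU.1 core, 35.7% the GC box, 13.6% the TATA box and 7.81% the AP-1 site. Windows were found for 38 of the 43 members, and with 1 window per gene 18 of them held the PU.1 core, 4 the GC box, 11 the TATA box and 7 the AP-1 site. A match describes letters and does not show a bound site.

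Clec7a encodes Dectin-1, the beta-glucan receptor with its own Syk-recruiting tail. It read 14.03 and 14.06 in control and 14.01 and 14.03 with SAHA, so the groups overlapped and the 95% interval of the change was -0.24 to 0.19. Clec5a (MDL-1, which pairs with DAP12) read 10.05 and 9.64 in control and 10.07 and 9.63 with SAHA, with a change of 0.00 (interval -0.51 to 0.51). Clec1b (CLEC-2, the podoplanin receptor) had a change of 0.05 (interval -0.35 to 0.46) and Clec4b1 (DCAR, an activating relative of DCIR) of 0.13 (interval -0.53 to 0.78). In this group 1 of 7 members rose and none fell.

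**Figure D2:**
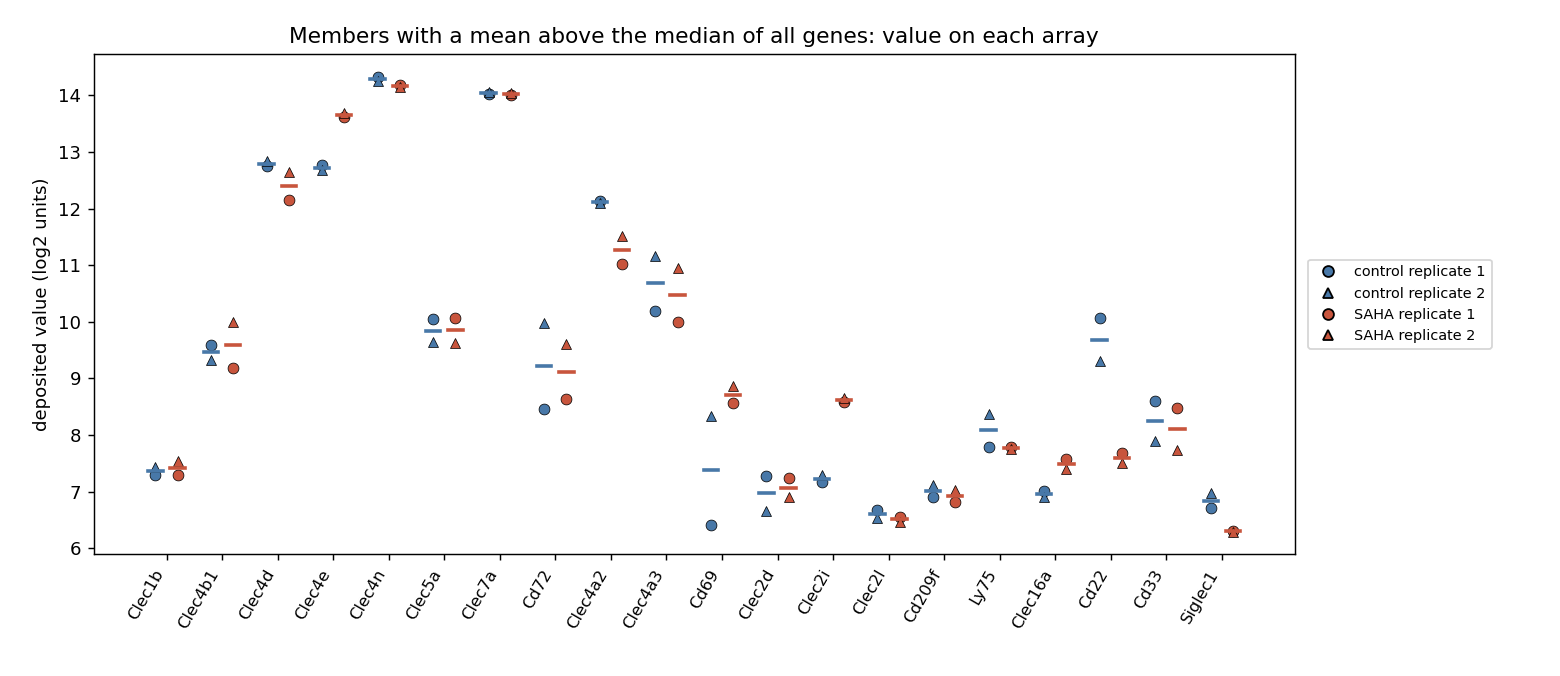
Deposited log2 value on each array for the 20 members whose mean lay above the median of all genes, ordered by role. Circles are replicate 1, triangles replicate 2, blue control, red SAHA, and short lines group means. Clec4e, Clec2i and Cd22 show groups well apart, whereas Cd72, Clec4a3 and Cd33 separate by replicate number in both groups.

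None of the 4 inhibitory lectins and DCIR relatives passed the test (limma, 1 at an unadjusted p under 0.05). Clec4a2, which encodes the ITIM-bearing receptor DCIR1, read 12.13 and 12.09 in control and 11.03 and 11.52 with SAHA. Both SAHA arrays lay below both control arrays, with a change of -0.84 ± 0.18 (SE, interval -1.26 to -0.42) that missed the threshold (adjusted p = 0.0716, limma). Its second probe set gave -1.12 (adjusted p = 0.0592 over all probe sets). A further probe set shared with Clec4b1 read 12.36 and 12.34 in control and 11.38 and 12.05 with SAHA, a change of -0.63. All 3 probe sets pointed the same way, and in each the SAHA arrays lay further apart than the control arrays.

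Clec4a3 (DCIR3) read 10.20 and 11.16 in control and 9.99 and 10.94 with SAHA. Cd72, an ITIM-bearing receptor best known from B cells, read 8.46 and 9.98 in control and 8.63 and 9.61 with SAHA. In both genes the arrays of a group lay further apart than the group means, whose differences were -0.21 and -0.10. The fourth, Clec12b, an inhibitory lectin, stayed between 4.22 and 4.39.

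The Clr proteins are encoded by Clec2 genes, and some of them, such as Clr-b and Clr-g, are ligands of NKR-P1 receptors of natural killer cells. Most Clec2 genes measured here lie with Cd69 and the Dectin-1 gene in the natural killer gene complex. Clec2i, the gene of Clr-g, read 7.17 and 7.30 in control and 8.59 and 8.65 with SAHA. The groups were far apart and the arrays of each within 0.13 of each other. The change was 1.39 ± 0.15 (SE, adjusted p = 0.0148, limma). A second probe set read 4.86 and 4.88 in control and 6.02 and 6.00 with SAHA, a change of 1.14 (adjusted p = 0.0267 over all probe sets).

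The order of the members there was Clec2i, Clec2g, Clec2e, Clec2d, Cd69, Clec2m, Clec12b, Clec1b, Clec1a and Clec7a, 10 in a run on chromosome 6 by the same rule as before. Of these 10, Clec2i alone passed the test. Clec2d encodes Clr-b, the ligand of the inhibitory receptor NKR-P1B, and read 7.28 and 6.67 in control and 7.24 and 6.90 with SAHA (change 0.10, interval -0.49 to 0.69). The other Clec2 genes, Clec2e, Clec2g, Clec2h, Clec2l and Clec2m, had changes of -0.21 to -0.01, and for Clec2g and Clec2m all 4 arrays lay under the 25th percentile of genes.

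The window of Clec2i is shown because this gene changed and its neighbours did not pass. It is the first of 2 RefSeq windows that differ by a few bases, with build and marking as above.
Clec2i, chr6:128887337-128887636, plus strand: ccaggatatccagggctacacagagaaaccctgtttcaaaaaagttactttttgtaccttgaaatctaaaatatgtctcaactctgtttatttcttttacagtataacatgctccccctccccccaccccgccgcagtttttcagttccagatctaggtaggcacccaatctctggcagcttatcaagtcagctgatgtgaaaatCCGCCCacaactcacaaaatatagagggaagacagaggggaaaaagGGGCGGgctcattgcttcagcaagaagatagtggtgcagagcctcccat
It held GGGCGG at bases 206 to 211 and 252 to 257, on opposite strands, and none of the other 3 motifs. Of the 38 members with a window, 4 held GGGCGG (10.5%), against 35.7% of all windows.

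Cd69, an early activation antigen of leukocytes that retains them in tissue, read 6.42 and 8.35 in control and 8.56 and 8.87 with SAHA. The SAHA arrays lay above both control arrays, but in control replicate 1 minus replicate 2 was -1.93. The change was 1.33 ± 0.56 (SE, interval -0.02 to 2.69, adjusted p = 0.284, limma). Without control replicate 1 the change was 0.37, and without control replicate 2 it was 2.30, so its size rested on 1 control array. The latter fit passed (adjusted p = 0.00808, limma), but its spread came from the 2 SAHA arrays alone (SD 0.22, against 1.36 in control).

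The siglecs held 7 members. Cd22, an ITIM-bearing siglec that restrains B cell receptor signalling and binds alpha-2,6-linked sialic acid, read 10.06 and 9.31 in control and 7.68 and 7.51 with SAHA. Both SAHA arrays lay far below both control arrays, and the control arrays differed by 0.76. The change was -2.09 ± 0.26 (SE, adjusted p = 0.0208, limma). Its second probe set read 8.10 and 7.29 in control and 5.37 and 4.91 with SAHA, a change of -2.55 (adjusted p = 0.0222 over all probe sets).

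B cell markers were below the median of all genes. Their mean over the 9 measured genes was 4.72 and 4.85 in control and 4.67 and 4.70 with SAHA, against array medians of 6.46 to 6.49, and no gene of the list passed the test (limma, 1 at an unadjusted p under 0.05). Cd79a, a chain of the B cell receptor complex, read 4.71 and 4.70 in control and 4.31 and 4.42 with SAHA. Ms4a1 (CD20) read 3.81 and 4.47 in control and 3.89 and 3.63 with SAHA. All arrays lay under the 25th percentile of genes for 2 of the 9, while Pax5 and Vpreb3 read 5.30 to 5.98. Their part in the Cd22 values was not tested.

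The promoter window of Cd22 is shown as that of the 1 member that fell, from the same source.
Cd22, chr7:30878979-30879278, minus strand: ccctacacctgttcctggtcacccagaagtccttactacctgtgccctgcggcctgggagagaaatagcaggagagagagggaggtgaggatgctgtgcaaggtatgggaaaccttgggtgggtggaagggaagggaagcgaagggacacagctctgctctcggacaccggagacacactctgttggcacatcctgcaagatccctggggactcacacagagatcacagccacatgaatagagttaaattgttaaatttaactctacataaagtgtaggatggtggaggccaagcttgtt
It held no match to any of the 4 motifs, which says only that these letters are not in this window.

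**Figure D3:**
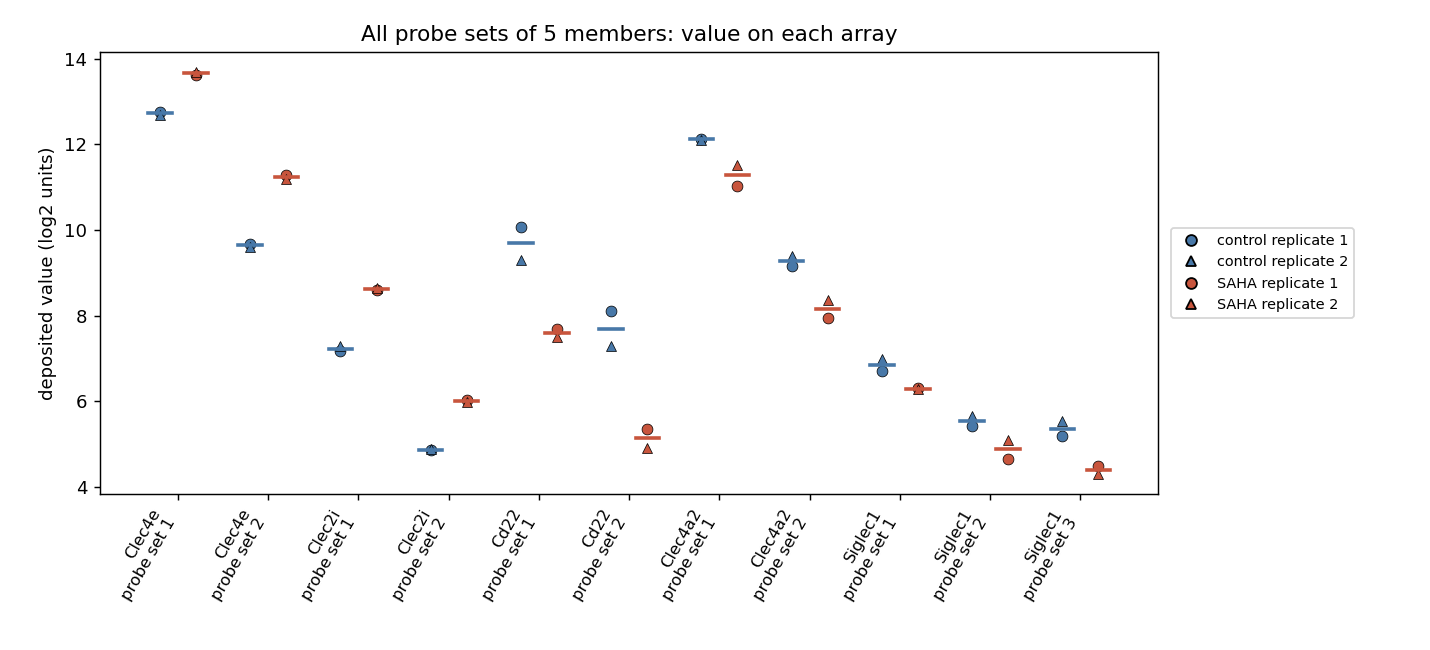
Deposited log2 value on each array for every probe set of Clec4e, Clec2i, Cd22, Clec4a2 and Siglec1. Symbols are as in the plot of values by array. In each of the 11 probe sets the control and SAHA arrays did not overlap, whereas 50.7% of all genes did not overlap. Probe sets of 1 gene moved in the same direction. The genes shown are members whose groups did not overlap, so the count is no separate support. Clec16a, not shown, had probe sets of opposite sign.

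Siglec1, which encodes sialoadhesin, an adhesion receptor of macrophages without an ITIM, read 6.70 and 6.98 in control and 6.30 and 6.29 with SAHA. The groups did not overlap, and the change of -0.55 ± 0.17 (SE, interval -0.94 to -0.15) missed the threshold (adjusted p = 0.162, limma). Its other probe sets gave -0.66 (adjusted p = 0.178) and -0.96 (adjusted p = 0.0569) over all probe sets. Siglecg, an inhibitory siglec of B cells and dendritic cells, read 6.09 and 6.15 in control and 6.48 and 6.63 with SAHA. Its change was 0.44 (interval 0.07 to 0.80, adjusted p = 0.209), opposite in sign to that of Cd22. The 2 SAHA arrays lay above both controls in Siglecg and below them in Siglec1.

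Siglece, an inhibitory siglec of myeloid cells, read 5.44 and 5.55 in control and 5.11 and 5.28 with SAHA (change -0.30, adjusted p = 0.344). Siglech, a marker of plasmacytoid dendritic cells, read 4.85 and 4.97 in control and averaged 4.92 with SAHA, the groups overlapping. Cd33, which encodes siglec-3, read 8.60 and 7.89 in control and 8.48 and 7.74 with SAHA. Siglecf, known from eosinophils and alveolar macrophages, read 6.86 and 4.60 in control and 6.58 and 5.47 with SAHA. For Cd33 and Siglecf replicate 1 was higher than replicate 2 in both groups, by more than the groups differed. Of 11 markers of mast cells, basophils and eosinophils 1 lay above the median of all genes, and the eosinophil granule genes Epx and Prg2 read 3.95 to 5.96.

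The uptake and adhesion lectins held 10 members, and none passed the test (limma, 2 at an unadjusted p under 0.05, Cd209c and Clec4f). Ly75 encodes DEC-205, an endocytic receptor by which dendritic cells bring antigen to presentation, and read 7.80 and 8.37 in control and 7.79 and 7.76 with SAHA (change -0.31, interval -0.83 to 0.21). The Cd209 genes are the mouse relatives of human DC-SIGN. Cd209f lay above the median of all genes, at 6.90 and 7.12 in control and 6.83 and 7.03 with SAHA. The other 6, Cd209a, Cd209b, Cd209c, Cd209d, Cd209e and Cd209g, read between 3.50 and 4.99 on every array, and for 4 of these all arrays lay under the 25th percentile of genes. Cd209a, the gene most often named DC-SIGN in the mouse, read 4.57 and 4.68 in control and 4.55 and 4.47 with SAHA. Cd209d (SIGNR3) read 4.30 and 4.37 in control and 3.86 and 4.26 with SAHA.

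Clec4f, a receptor of Kupffer cells, and Clec4g, a lectin of liver sinusoids, had changes of -0.43 and -0.11. All 10 estimates of this group were below 0, from -0.44 to -0.06, as were 58.8% of all genes. The share below 0 was 71.0% among all genes at or below the median level, where 8 of the 10 lie, and 46.5% among those above it, where Ly75 and Cd209f lie. The Cd209 genes and Clec4g form a run of 8 members on chromosome 8.

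Of the 7 secreted, vascular and other Clec proteins none passed (limma, 1 at an unadjusted p under 0.05). Clec16a, which despite its name encodes an endolysosomal protein of mitophagy and no lectin receptor, read 7.01 and 6.90 in control and 7.57 and 7.41 with SAHA. Its change of 0.53 ± 0.16 (SE) missed the threshold (adjusted p = 0.150, limma), and its second probe set gave -0.22, so its probe sets disagreed in sign. Reg3g, a secreted antibacterial lectin of the gut, lay under the 25th percentile on all 4 arrays, at 3.58 to 4.08. Clec3b (tetranectin), Clec11a (a secreted growth factor), Clec14a (endothelial), Clec18a and Clec1a had changes of -0.13 to 0.10.

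By level, 20 members lay above the median of all genes and 23 at or below it. The 3 that passed were among the 20, where 3.20% of all genes passed. All 23 of the others had changes within 0.5 in either direction, at most 0.44 in size, and none passed, against 1.25% of all genes at or below the median.

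Several members varied more between replicate numbers than between groups. Replicate 1 and replicate 2 differed by over 0.5 in the same direction in both groups for 4 of 43 members (9.30%), namely Cd72, Clec4a3, Cd33 and Siglecf, against 2.59% of all genes. Replicate 1 minus replicate 2 was -1.53 in control and -0.97 with SAHA for Cd72, and -0.96 and -0.95 for Clec4a3. Cd33 was higher in replicate 1 by 0.70 and 0.74, and Siglecf by 2.26 and 1.10. The gaps in control and in SAHA correlated at 0.67 across the 43 members and 0.57 across all genes (Pearson's r, a description, since genes share arrays). The mean of 10 macrophage and monocyte markers also differed by replicate number, at 11.85 and 12.26 in control replicates 1 and 2 and 11.84 and 12.38 in the SAHA ones, but the list did not move as one. In both groups 7 of the 10 were lower in replicate 1, with the wider gaps in Fcgr1 (-1.31 in control and -1.53 with SAHA), C1qa, C1qb, C1qc and Ccr2. The other 3, Csf1r, Cd14 and Cd68, were higher in replicate 1, by 0.05 to 0.15. The part of these markers in these gaps was not tested.

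**Figure D4:**
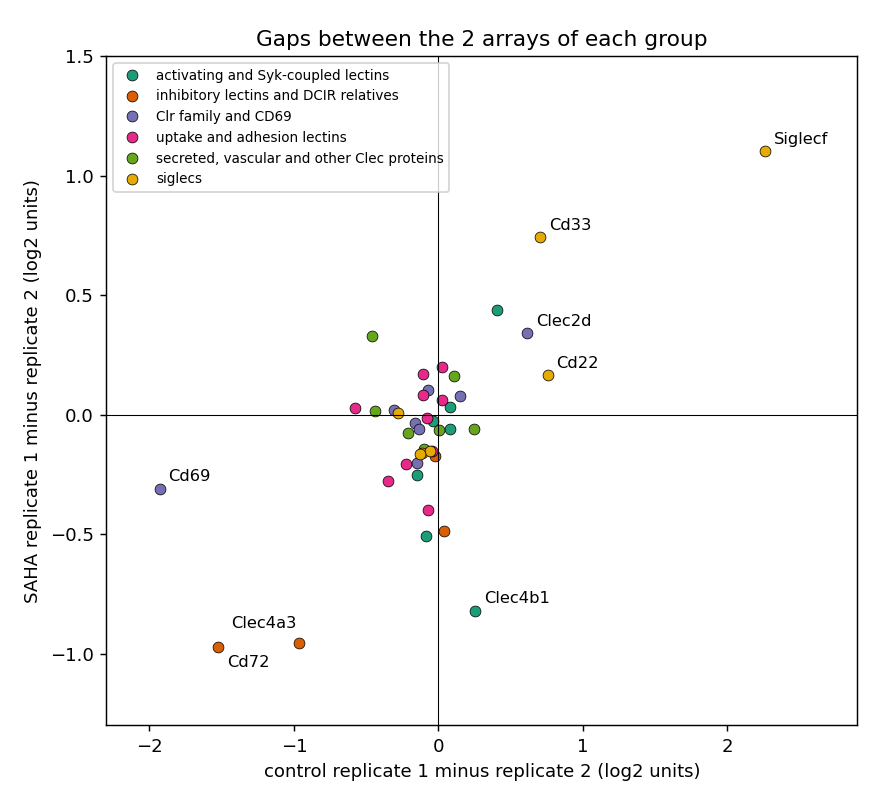
Gap between replicate 1 and replicate 2 in control (horizontal) and in SAHA (vertical), in log2 units, with 1 point per member coloured by role. Cd72 and Clec4a3 lie low in both directions and Siglecf and Cd33 high in both, whereas Cd69 varied mainly in control.

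Among genes that act around these receptors 77 were measured in 4 lists, of which 1 rose and 2 fell (3.90%, against 2.23% of all genes). In the Syk and ITAM signalling list 1 of 18 fell and none rose (median change -0.10, all genes -0.05). At an unadjusted p under 0.05 (limma) this list had 8 of 18, against 18.1% of all genes. The gene that fell was Src, a kinase, which read 7.84 and 7.92 in control and 6.76 and 6.95 with SAHA (change -1.02 ± 0.16, SE, adjusted p = 0.0378, limma). The adaptors that Mincle, Dectin-2 and MDL-1 use, Fcer1g and Tyrobp, had changes of -0.10 and -0.11, and Syk itself 0.43 (adjusted p = 0.153).

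Among phosphatases and adaptors of ITIM receptors 1 of 14 fell and none rose (limma, 2 at an unadjusted p under 0.05, median 0.12). The gene that fell was Dok2, an adaptor that restrains tyrosine kinase signalling, which read 11.47 and 11.04 in control and 10.02 and 10.08 with SAHA (change -1.20 ± 0.17, SE, adjusted p = 0.0293, limma). The phosphatase genes Ptpn6 (SHP-1) and Inpp5d (SHIP-1) had changes of -0.02 and 0.02. None of 19 C-type lectin-like proteins outside the rule passed at this threshold (limma, 4 at an unadjusted p under 0.05, median -0.09). The largest estimates were Cd93, a receptor of myeloid and endothelial cells, at 1.16 (adjusted p = 0.0670), and Cd302 at -0.91 (adjusted p = 0.166).

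Of 26 genes of sialic acid synthesis, transfer and removal, which make or remove the siglec ligands, 1 rose and none fell (limma, 6 at an unadjusted p under 0.05, median -0.01). St8sia6, an alpha-2,8-sialyltransferase, read 4.96 and 3.97 in control and 6.54 and 6.57 with SAHA (change 2.09 ± 0.31, SE, adjusted p = 0.0338, limma), with control replicate 2 under the 25th percentile of its array. St6gal1, which makes the alpha-2,6-linked sialic acid that Cd22 binds, had a change of 0.34 (interval -0.14 to 0.82).

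Neutrophil markers moved with SAHA in the same arrays, with 5 of 10 lower, 1 higher and a median change of -0.66 (limma, 8 at an unadjusted p under 0.05). Their mean level was 7.37 and 7.41 in control and 7.09 and 7.04 with SAHA. The genes that fell were Ngp, Ltf, S100a9, S100a8 and Camp, with changes of -1.88 to -0.82. Prtn3 rose by more than any of these fell, with a change of 3.65 (adjusted p = 0.00833, limma). Mmp8 also had a positive estimate, at 0.86, but did not pass (adjusted p = 0.143, limma). Mincle, MDL-1 and CD33 are also made by neutrophils or monocytes, and the part of such cells in the members' values was not tested. No gene of the macrophage and monocyte list passed (limma, 2 at an unadjusted p under 0.05, median -0.06), the largest estimates being Ccr2 at 1.58 (adjusted p = 0.0732) and Mertk at -0.92 (adjusted p = 0.0509). In the dendritic cell list Irf4, a transcription factor of dendritic cells, rose with a change of 0.81 (adjusted p = 0.0431) and the median was 0.07 (limma, 5 at an unadjusted p under 0.05). The plasmacytoid list had a median of -0.14 with none of 9 past the threshold (limma, 2 at an unadjusted p under 0.05), Tcf4 at 0.92 (adjusted p = 0.0759) and Ccr9 at -0.41 having the largest estimates. NK and T cell markers had a median of -0.10 (Eomes -0.25, Gzma -0.21), and those of mast cells, basophils and eosinophils -0.14 (Prg2 -0.99, Gata2 -0.45), with none of either list past the threshold (limma, 0 and 2 at an unadjusted p under 0.05).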

How the data were processed

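Total RNA was labelled and hybridised to 4 Affymetrix arrays, 2 per group, per the labels' protocols. The deposited table holds a log2 value for each probe set and array. The log2 scale was read from the values (2.59 to 15.0, array medians 5.34 to 5.35). The submitters' processing notes name R 2.7, while the summarisation, normalization and build are not given in the sources used here. Of 45101 probe sets 34958 carried 1 gene symbol in the platform annotation, 932 several and 9211 none. Symbols were updated through Entrez identifiers where RefSeq held them (34754). Members and gene lists were chosen with earlier results of these data known.

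SAHA and control were compared by limma (version 3.58.1, R 4.3.3; lmFit, eBayes with an intensity trend) over 18194 genes, two-sided, with an adjusted p under 0.05, tested first on simulated data. With 2 arrays per group an exact permutation test cannot go below p = 0.333, and the number of arrays limits precision. Named were members past the threshold or above the median level, members fixed by name (Clec9a and Clec12a among them were not analysed here), and in each list the genes past the threshold or, where none passed, the 2 of largest change. The 15 alternatives covered moderation, normalization, low values, probe sets, threshold, replicate number and each array.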

Additional observations from a re-analysis of the deposited data

How the results depend on the processing

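Clec4e, Clec2i and Cd22 were the only members to pass without the intensity trend, with robust spread, quantile normalization, median centring or an offset of 32. The same held among genes above the median level, with averaged probe sets and in a fit over single probe sets. These 3 also passed with the replicate block and without either control array. With the block other members passed too, and without control replicate 2 so did Cd69. Members higher and lower were 0 and 0 with the floor at the 20th percentile (10 of all genes and 0 pathway genes passing) and at a threshold of 0.01 (8 of all genes, 0 pathway genes). With the floor the changes of the 3 genes were unmoved and the adjusted p was 0.165 for Clec4e, 0.158 for Clec2i and 0.204 for Cd22 (limma); the cause was not tested. The fits without 1 array take the spread from the group that keeps 2, and the lone array is assumed to vary like them. Over these fits, members higher ranged from 0 to 3, members lower from 0 to 1, pathway genes from 0 to 5 and all genes from 31 to 529. Without SAHA replicate 1 the adjusted p was 0.114 for Clec4e, 0.104 for Clec2i and 0.0877 for Cd22, and without SAHA replicate 2 it was 0.0815, 0.0735 and 0.0667 (limma). All genes passing were 226 among genes above the median level, where fewer genes (9097) were tested, and 253 with each probe set on its own.

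With replicate number as a block 5 members were higher and 6 lower, 11 of 43, against 3616 of all genes (19.9%), and 25 pathway genes passed. The added members were Cd69, Clec16a, Siglecg, Clec4a2, Clec4d, Siglec1, Cd209c and Clec4f. Same-numbered arrays deviated together (r = 0.57 across genes), but the labels do not link a number to a culture and there are 2 pairs, so the block was not used for calls. Clec16a was 0.16 when its probe sets were averaged. The sign of Siglecf depended on the arrays, at 1.43 without control replicate 1 and -0.83 without control replicate 2.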
